A study of Homo sapiens with 6 samples.

Results

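The replication-dependent histone genes encode the core histones H2A, H2B, H3 and H4 and the linker histone H1 that package newly made DNA. They were taken as the protein-coding genes with symbols H1-1 to H1-6, or H2AC, H2BC, H3C or H4C followed by a number, and 69 of the 20166 protein-coding genes met this rule. They comprised 6 H1, 17 H2A, 18 H2B, 13 H3 and 15 H4 genes. Peaks of SUMO-2/3 were counted from 2 kb upstream of the transcription start site (TSS) to 1 kb past the end of each gene (the gene window). The comparison genes were the 56 other protein-coding genes that start between 25 and 29 Mb of chromosome 6 or in the last megabase before 150 Mb of chromosome 1.

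The data were SUMO-2/3 ChIP-seq peak lists of HL-60, a human acute myeloid leukaemia cell line. SUMO-2 and SUMO-3 are small proteins that are attached to other proteins and can be removed again. All cells were exposed for 2 h, to water (mock), to 2 µM of the nucleoside analogue Ara-C, or to 1 µM of the anthracycline DNR, and the labels describe no genetic change in any of them. The study asked where on chromatin SUMOylated proteins lie after each drug. Chromatin from 3 cultures was pooled before each library, so that every condition had 1 library and 1 peak list and the differences described have no replicate check. The lists gave positions only, without heights or read numbers, so that the depth was unknown and the width of a peak was the only measure of its size. Library depth, scaling and treatment cannot be told apart. In a pooled population, a site bound in more cells and a site bound more heavily in each cell also cannot be told apart.

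Most of these genes lie in clusters on chromosome 6 and, in smaller number, on chromosome 1. They are transcribed mainly while DNA is replicated, in a nuclear structure called the histone locus body, where the protein NPAT is required for their activation. Many H2A and H2B genes stand head to head and share the DNA between their start sites. Their transcripts have no poly(A) tail, and end instead just past a short stem-loop that is bound by the protein SLBP and cut by a machinery that includes the U7 small nuclear RNP.

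A stem-loop was found at the 3′ end of all 69 genes, 336 to 776 bp from the TSS, and it marks where a histone transcript ends. The forms carried by at least 4 genes are shown with the stem in capitals and the loop in lower case. The first was carried by 40 genes, the second by 10 H4 genes, the third by 9 genes and the last by 4 H4 genes. Letters were read from GRCh37 on the coding strand.
Carried in the H1, H2A, H2B and H3 families: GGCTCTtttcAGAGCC
Main H4 form: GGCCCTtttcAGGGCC
Form of H1, H2A, H2B and H3 with another loop: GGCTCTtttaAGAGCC
Second H4 form: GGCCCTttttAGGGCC

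The promoters carried the letters usual for these genes. Of the 69 genes, 64 were matched to a RefSeq promoter of 300 bases on GRCh38.p14, and the motifs were searched on both strands (the TATA box as TATAAA, the CCAAT box, and ATTTGCAT as the octamer bound by OCT1). No entry was matched for H2AC12, H3C11, H3C12, H4C1 and H4C3. TATAAA was present in 42 of 64 histone promoters (65.6%) and in 9.63% of 15843 coding promoters. The CCAAT box was present in 54 (84.4%), against 36.4%. The octamer was present in 26 (40.6%), against 1.70%, and 11 of 16 H2A and 14 of 18 H2B promoters held it, against 0 of 6 H1, 1 of 11 H3 and 0 of 13 H4 promoters. Every promoter of the H1, H2A, H2B and H3 families held the CCAAT box, as did 3 of 13 H4 promoters. Promoters of head-to-head H2A and H2B genes hold largely the same DNA. With both strands searched, 1 motif there can count for both genes, so these are counts of promoters and not of separate sites.

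Sequences from GRCh37 are given for the promoters of 3 genes and of 1 head-to-head pair that carried wide mock peaks. Each single promoter is the 250 bases before the TSS on the coding strand, and the pair is the 235 bases between both TSSs on the plus strand. Capitals mark the 3 motifs on either strand.
H4C8, chr6:26285763-26286012, minus strand: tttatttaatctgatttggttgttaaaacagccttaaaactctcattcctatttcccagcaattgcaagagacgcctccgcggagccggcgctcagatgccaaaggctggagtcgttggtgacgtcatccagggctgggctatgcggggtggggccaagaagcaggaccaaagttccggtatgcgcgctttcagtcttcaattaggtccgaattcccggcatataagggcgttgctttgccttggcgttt
H1-4, chr6:26156307-26156556, plus strand: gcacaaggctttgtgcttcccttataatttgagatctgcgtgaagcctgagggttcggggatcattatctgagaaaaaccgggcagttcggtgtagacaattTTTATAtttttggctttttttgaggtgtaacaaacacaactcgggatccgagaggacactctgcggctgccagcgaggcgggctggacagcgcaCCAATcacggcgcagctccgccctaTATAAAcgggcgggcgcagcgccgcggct
H3C10, chr6:27777579-27777828, plus strand: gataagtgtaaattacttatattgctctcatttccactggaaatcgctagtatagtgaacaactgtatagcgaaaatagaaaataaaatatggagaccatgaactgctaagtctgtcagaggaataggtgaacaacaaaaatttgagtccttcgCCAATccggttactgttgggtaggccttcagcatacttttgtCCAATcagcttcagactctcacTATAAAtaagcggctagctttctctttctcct
H2BC21 and H2AC20, chr1:149858233-149858467, plus strand: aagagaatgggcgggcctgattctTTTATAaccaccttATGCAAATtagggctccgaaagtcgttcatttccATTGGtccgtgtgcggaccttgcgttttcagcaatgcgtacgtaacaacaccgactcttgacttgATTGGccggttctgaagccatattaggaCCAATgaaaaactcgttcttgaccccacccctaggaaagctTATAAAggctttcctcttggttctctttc
All 235 bases of the H2BC21 and H2AC20 sequence lay in a peak in the mock and Ara-C lists, and none under DNR. Of the H4C8 sequence, 238 bases lay in a mock peak, 250 in an Ara-C peak and 0 in a DNR peak. Of the H1-4 sequence, 56 bases lay in a mock peak and 0 in either drug list. Of the H3C10 sequence, 78 bases lay in an Ara-C peak and 0 in the other lists.

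Histone genes carried SUMO-2/3 peaks in mock-treated and Ara-C-treated cells, and few carried one after DNR. A peak was present in the gene window of 42 of 69 histone genes in the mock list (60.9%, 95% Wilson interval 49.1 to 71.5). Under Ara-C it was 43 genes (62.3%, 50.5 to 72.8), and under DNR 7 genes (10.1%, 5.00 to 19.5). Of all coding genes, 53.4% had a mock peak, 63.6% an Ara-C peak and 39.1% a DNR peak. The mock and Ara-C shares of the histone genes were thus near those of all genes, although histone genes are short, and the DNR share was lower. Among the 56 comparison genes, 32 (57.1%), 35 (62.5%) and 16 (28.6%) had a peak in mock, Ara-C and DNR. These intervals cover counting error only.

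Long genes collect peaks in their bodies, so the same count was made from 2 kb upstream to 1 kb downstream of the TSS (the TSS window). There, 41 histone genes had a mock peak (59.4%, 47.6 to 70.2), 42 an Ara-C peak (60.9%, 49.1 to 71.5) and 6 a DNR peak (8.70%, 4.05 to 17.7). The comparison genes had 12 (21.4%, 12.7 to 33.8), 11 (19.6%, 11.3 to 31.8) and 1 (1.79%, 0.316 to 9.45). All coding genes had 21.8%, 26.4% and 6.46%. The intervals of histone and comparison genes did not overlap in mock or under Ara-C, and they overlapped under DNR, where the histone share also lay near that of all genes. Neighbouring histone genes can share a peak, which is then counted for each of them. The histone intervals take these genes as separate and are therefore too narrow, and comparing them is not a test between the groups.

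**Figure D1:**
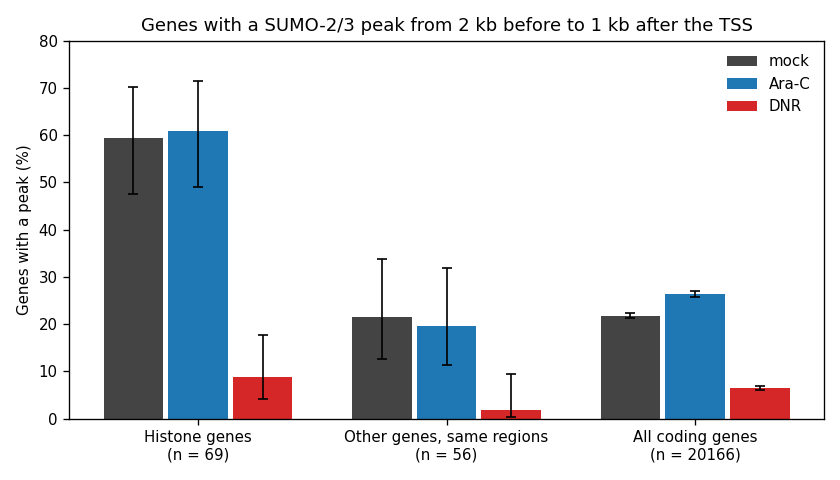
Share of genes with a SUMO-2/3 peak in the TSS window (y axis, percent) for the 69 histone genes, the 56 other genes of the same regions and all 20166 coding genes, in the mock, Ara-C and DNR lists; error bars are 95% Wilson intervals, which cover counting error only. The histone bars stand at 59.4% and 60.9% in mock and Ara-C, against 21.8% and 26.4% for all coding genes, and at 8.70% under DNR, against 6.46%.

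Neighbouring windows overlap, so peaks were also counted once each. The merged gene windows held 55 mock peaks (exact Poisson interval 41.4 to 71.6), 47 Ara-C peaks (34.5 to 62.5) and 7 DNR peaks (2.81 to 14.4). The whole Ara-C list was the larger, with 72279 peaks against 44265 in mock and 33355 under DNR. Per 10000 peaks of its list, the histone windows thus held 12.4 mock, 6.50 Ara-C and 2.10 DNR peaks. In the TSS windows, the mock density was 32.2 peaks per 100 kb (23.8 to 42.6), the Ara-C density 27.0 (19.3 to 36.6) and the DNR density 2.63 (0.717 to 6.74). The same density over all coding genes was 7.87, 9.92 and 2.25. Over the longer gene windows the histone densities were 16.0, 13.6 and 2.03 per 100 kb, and those of all coding genes 1.83, 2.94 and 1.28. In the TSS windows, the ratio of the histone density to that of all coding genes was therefore 4.09 for mock, 2.72 for Ara-C and 1.17 for DNR. The ratio to the comparison genes depended on the window. In the TSS windows it was 3.26 for mock, 3.36 for Ara-C and 4.26 for DNR, the last from 4 histone peaks against 1 peak. In the gene windows it was 4.91, 2.83 and 1.25, the last from 7 peaks against 27.

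The peaks at histone genes were wider at the median than those of the whole lists. Their median width was 250 bp in mock and 200 bp in both drug lists, against 150 bp over each whole list. A width of at least 300 bp was reached by 23 of 55 peaks in mock (41.8%), 13 of 47 under Ara-C (27.7%) and 1 of 7 under DNR. In the whole lists such peaks made up 9.72%, 7.93% and 5.26%. Peaks near start sites are wider than most, and in the TSS windows of all coding genes this width was reached by 23.0% (mock), 21.5% (Ara-C) and 7.97% (DNR) of peaks. The histone TSS windows gave 42.9%, 31.7% and 1 of 4 peaks. Those of the comparison genes gave 5 of 16 peaks in mock (31.2%) and 6 of 13 under Ara-C (46.2%), the latter above the histone share, and 0 of 1 under DNR. The widest was 950 bp in mock, over H4C8, 600 bp under Ara-C, over H4C8 and between H2BC11 and H2AC11, and 300 bp under DNR, near H2BC4 and H2AC6. Mock peaks covered 17700 bases of the histone windows, Ara-C peaks 11950 and DNR peaks 1350. Of all 69 genes, 33 had fewer peak bases under Ara-C than in mock, 13 had more and 23 had as many, and the median was 250 bp in both lists. Under DNR, 41 had fewer, 2 had more and 26 had as many, with a median of 0 bp.

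By condition, 33 genes had a peak in mock and under Ara-C alone, and 20 had none in any list. The other patterns were rare. A peak in all 3 lists was present at H2AC25, H2BC4, H2AC6, H4C5 and H4C8. A mock peak alone was present at 4 genes (H1-3, H2BC13, H2AC13 and H2AC15), and an Ara-C peak alone at 5 (H2AC19, H2BC26, H2AC7, H2BC7 and H4C11). H3C8 and H2BC10 had a DNR peak alone, which was the same 150 bp peak.

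**Figure D2:**
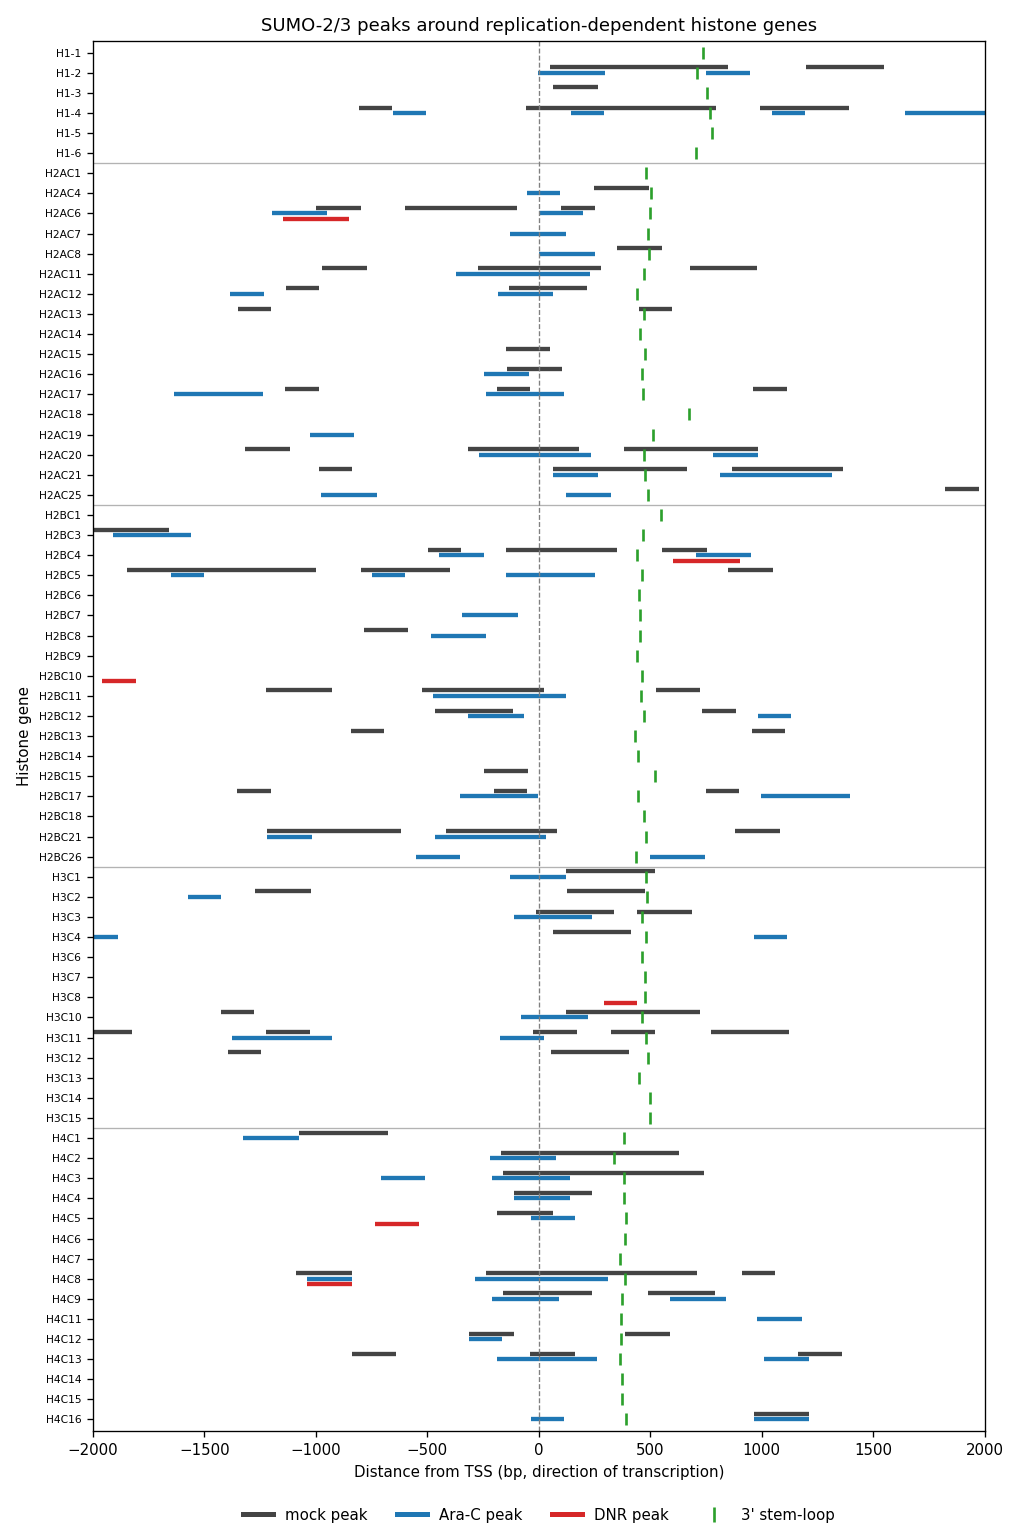
Peaks of the mock, Ara-C and DNR lists (bars in 3 colours) from 2000 bp before to 2000 bp after the TSS of each of the 69 histone genes (rows, by family), with the 3′ stem-loop as a green tick; the x axis is the distance from the TSS in bp. Mock bars reach the stem-loop at 13 genes, Ara-C bars lie mostly around the TSS, and the DNR bars are few and lie off the TSS.

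Each family held genes with a peak. In mock, 3 of 6 H1, 12 of 17 H2A, 10 of 18 H2B, 7 of 13 H3 and 10 of 15 H4 genes had one. Under Ara-C the numbers were 2, 12, 11, 7 and 11. Under DNR they were 0, 2, 2, 1 and 2. Among the H1 genes, H1-2, H1-3 and H1-4 had a mock peak, whereas H1-1, H1-5 and the testis gene H1-6 had none in any list. The head-to-head pair H2AC1 and H2BC1, which is expressed in testis, also had none in any list.

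Along the chromosomes, the genes with a peak were unevenly spread. The largest group on chromosome 6, of 32 genes from H1-1 to H4C8 (26.02 to 26.29 Mb), had a mock peak at 20 genes, an Ara-C peak at 21 and a DNR peak at 6. The next group (27.10 to 27.12 Mb) had a mock and an Ara-C peak at all 5 of its genes (H2BC11, H2AC11, H4C9, H2BC12 and H2AC12) and a DNR peak at none. The group of 16 genes from H2BC13 to H2BC17 (27.78 to 27.86 Mb) had mock peaks at 12, Ara-C peaks at 10 and DNR peaks at 0. The group of 11 genes on chromosome 1 from H2BC18 to H2AC21 (149.78 to 149.86 Mb) had mock peaks at 3, Ara-C peaks at 4 and DNR peaks at 0.

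The chromosome 1 group holds recent duplications, which bears on what uniquely placed reads could show. For each gene window, the share of 50-base words that occur once in GRCh37 was computed, 50 bases being the read length. For 8 genes of that group (H2BC18, H3C13, H4C14, H3C14, H2AC18, H2AC19, H3C15 and H4C15) the share was 0 to 35.7%, and it was 0 at 4 of them. Of these 8, only H2AC19 had a peak in any list, under Ara-C. For the other 61 genes the share was 85.0 to 100%, and 42 had a mock peak (68.9%), 42 an Ara-C peak (68.9%) and 7 a DNR peak (11.5%). Absence of a peak at the 8 genes is therefore not a measurement of absent SUMO-2/3. The other 13 genes without a peak in any list (H2AC1, H2BC1, H1-1, H1-5, H1-6, H2BC6, H2BC9, H2AC14, H2BC14, H3C6, H3C7, H4C6 and H4C7) were in mostly single-copy sequence. Within the transcript alone the share could be low where the window's was not, as at H4C11 (7.94%), which had only an Ara-C peak past the gene, and at H4C12 (7.40%), whose peaks lay on either side of the gene body. Of the 13 genes without a peak, H2AC14 was low in this respect (33.7%).

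**Figure D3:**
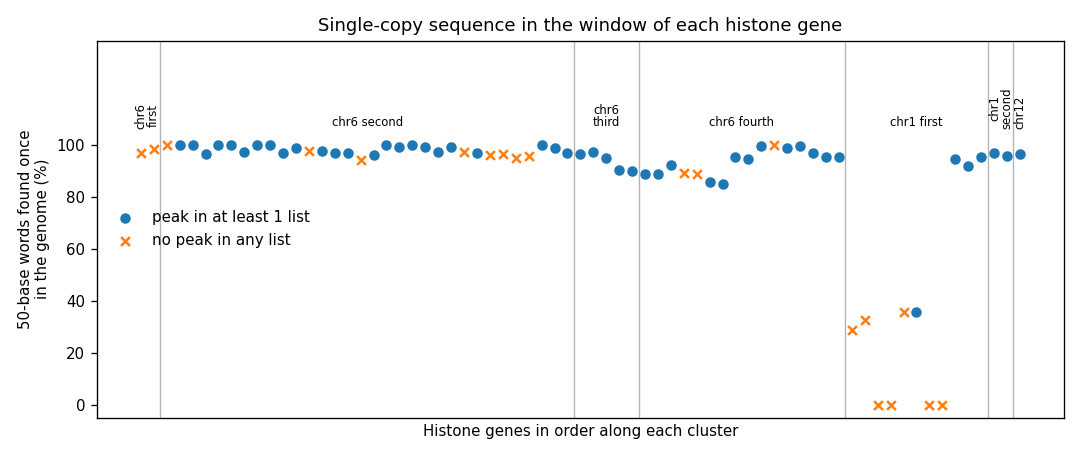
Share of 50-base words of each histone gene window found once in the genome (y axis, percent), with genes in order along each cluster (x axis); blue points had a peak in at least 1 list and orange crosses had none. The 8 genes at 35.7% or less all lie in the larger group on chromosome 1 and only 1 of them had a peak, whereas 13 genes at 85.0% or more had none.

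The genes with most peak bases are described next. H4C8 (chromosome 6, minus strand, TSS 26285762) encodes histone H4. Its mock peak at chr6:26285051-26286000 ran from -238 to 711 bp of the TSS and covered the whole short transcript and its stem-loop. Under Ara-C the peak at chr6:26285451-26286050 ran from -288 to 311 bp, short of the stem-loop. Under DNR no peak lay over this short transcript.

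The other H4 genes with wide mock peaks had the same order of widths. At H4C3 the mock peak was 900 bp wide, from -160 to 739 bp of the TSS, and the Ara-C peak there was 350 bp, from -210 to 139 bp. At H4C2 the mock peak was 800 bp, from -170 to 629 bp, and the Ara-C peak 300 bp, from -220 to 79 bp. At both genes the Ara-C peak lay over the TSS and ended inside the transcript, and no DNR peak was called. At H4C9, separate mock peaks of 400 bp over the TSS and 300 bp past the gene each had an Ara-C counterpart, of 300 bp and 250 bp. H4C13 had a mock peak of 200 bp over its TSS and an Ara-C peak of 450 bp there, the opposite order.

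The H1 genes H1-4 and H1-2, which encode linker histones, carried the widest peaks outside the H4 family. At H1-4 the mock peak of 850 bp ran from -56 to 793 bp of the TSS. Under Ara-C a 150 bp peak was called inside it, from 144 to 293 bp, and under DNR none. At H1-2 the mock peak of 800 bp ran from 48 to 847 bp. Under Ara-C a peak of 300 bp lay at its start, from -2 to 297 bp, and another of 200 bp lay past the stem-loop, from 748 to 947 bp. At H2BC5, which lies downstream of H1-4, a 400 bp peak of the Ara-C list lay over the TSS (-149 to 250 bp), where no mock peak was called.

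At the H3 genes H3C10 and H3C1 the mock peak lay over the gene body and the Ara-C peak nearer the start. At H3C10 the mock peak of 600 bp ran from 122 to 721 bp of the TSS and the Ara-C peak of 300 bp from -78 to 221 bp. At H3C1 the mock peak of 400 bp ran from 122 to 521 bp and the Ara-C peak of 250 bp from -128 to 121 bp, so that they met without overlap. At H3C3 the mock peak of 350 bp began at -11 bp and a second of 250 bp covered the stem-loop. The single Ara-C peak there, also 350 bp, ran from -111 to 238 bp. At H3C2 a mock peak of 350 bp lay from 127 to 476 bp, and the Ara-C list held only a 150 bp peak upstream. H3C11 had 5 mock peaks of 200 to 350 bp and 2 Ara-C peaks, of which the wider, 450 bp, lay over the TSS of its neighbour H4C13. At H3C12 the mock list held a 350 bp peak within the gene and the Ara-C list none there.

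Several head-to-head H2A and H2B genes shared a peak between their start sites. Of 12 such pairs, with 194 to 251 bp between the TSSs, 6 had a mock peak in that gap, 5 an Ara-C peak, 4 both and 0 a DNR peak. In the longer TSS window, 21.8% of all coding genes had a mock peak, 26.4% an Ara-C peak and 6.46% a DNR peak. The 0 of 12 under DNR is thus near the background. How often other head-to-head genes have a peak in a gap of this size was not tested. At H2BC21 and H2AC20 the gap lay in a 500 bp mock peak and a 500 bp Ara-C peak. H2AC21, their neighbour, had a mock peak of 600 bp from 65 to 664 bp of its TSS, which also covered the stem-loop of the convergent H2AC20. Under Ara-C it had a 200 bp peak, from 65 to 264 bp. At H2BC11 and H2AC11 the shared peak was 550 bp in mock and 600 bp under Ara-C. At H2BC12 and H2AC12 it was 350 bp and 250 bp. At H2AC17 and H2BC17 it was 150 bp in mock and 350 bp under Ara-C. The gap between H2BC4 and H2AC6 touched a 500 bp mock peak and no Ara-C peak, and that between H2AC7 and H2BC7 overlapped an Ara-C peak of 250 bp with none in mock.

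**Figure D4:**
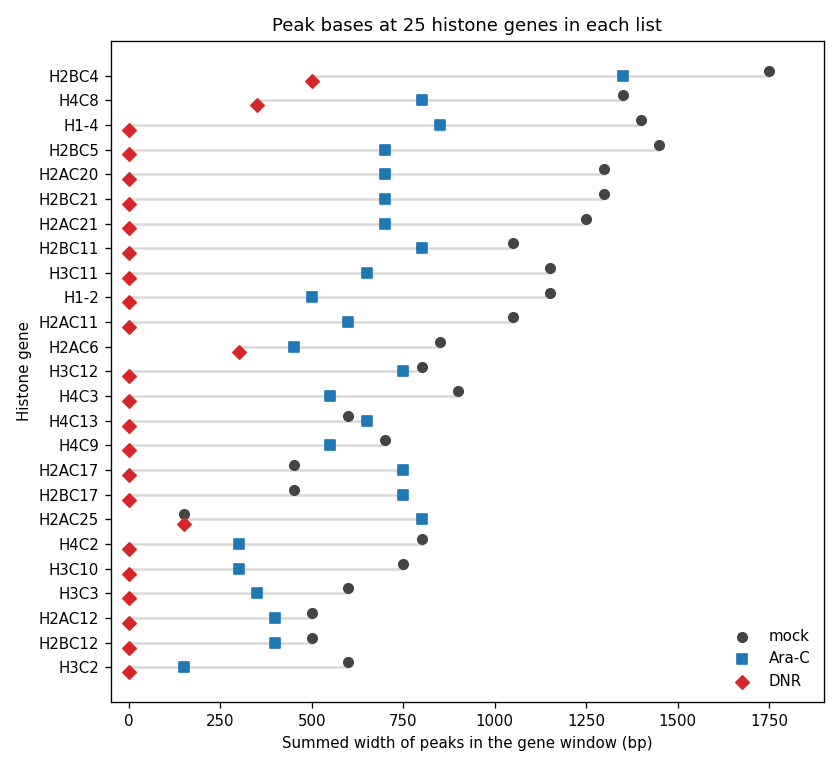
Summed width of SUMO-2/3 peaks in the gene window (x axis, bp) of the 25 histone genes with most peak bases, by list: mock circles, Ara-C squares and DNR diamonds. A peak in the windows of several genes is summed for each of them, as the 900 bp mock peak at H4C3 is for H2BC4. DNR lies at 0 for all but H2BC4, H4C8, H2AC6 and H2AC25, and Ara-C lies left of mock except at H4C13, H2AC17, H2BC17 and H2AC25.

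The peaks differed in where they lay along the gene. In mock, the base most often in a peak was 150 bp downstream of the TSS, at 22 of 69 genes (31.9%). Under Ara-C it was the TSS to 50 bp downstream, also at 22 genes. Under DNR no base in the 250 bp upstream of the TSS was in a peak at any of the 68 genes with a transcript of at most 1 kb. Over these 68 genes, the TSS itself lay in a mock peak at 17 and in an Ara-C peak at 21. Mock peaks covered 20.0% of the 250 bp upstream, 24.7% of the transcripts and 16.1% of the 250 bp downstream. Ara-C peaks covered 24.4%, 13.0% and 2.78%, and DNR peaks 0%, 0.439% and 0.624%. Ara-C coverage was thus the higher upstream of the TSS and the lower within the transcript and past its 3′ end.

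The stem-loop itself was compared next. It lay in a mock peak at 13 of 69 genes (18.8%, 11.4 to 29.6), at H1-2, H1-4, H2AC8, H2AC13, H2AC20, H2AC21, H3C1, H3C3, H3C10, H3C11, H4C2, H4C3 and H4C8. In the Ara-C and DNR lists it lay in a peak at 0 of 69 genes (upper Wilson bound 5.27%). None of the 13 was an H2B gene. Of the 40 genes with the most common stem-loop, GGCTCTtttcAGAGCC, 8 had it in a mock peak, and of the 10 H4 genes with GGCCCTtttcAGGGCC, 3 did. Counting a peak within 100 bp, there were 20 such genes in the mock list, 3 in the Ara-C list and 1 in the DNR list. The stem-loop was examined for coverage after peak positions had been seen, and it is a description of these 3 libraries.

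For comparison with other genes, the annotated transcript end was used in place of the stem-loop. It lay in a mock peak at 12 of 64 histone genes (18.8%, 11.1 to 30.0) and in an Ara-C or DNR peak at 0 of 64 (upper Wilson bound 5.66%). Of all coding genes, 0.589% had the end in a mock peak, 0.699% in an Ara-C peak and 0.221% in a DNR peak. Of 440 other genes with a transcript of at most 1 kb, 3 had their end in a mock peak, 4 in an Ara-C peak and 1 in a DNR peak. Of 107 other genes with a transcript of at most 5 kb and a mock peak over the TSS, 4 (3.74%) had the end in a mock peak. Among the 68 histone genes with a transcript of at most 1 kb, 17 had the TSS in a mock peak, and 7 of these had the end in one too. No set of other genes was matched to the histone genes in both transcript length and a peak over the TSS. Of 53 comparison genes, 1 had the end in a mock peak and 1 in an Ara-C peak.

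**Figure D5:**
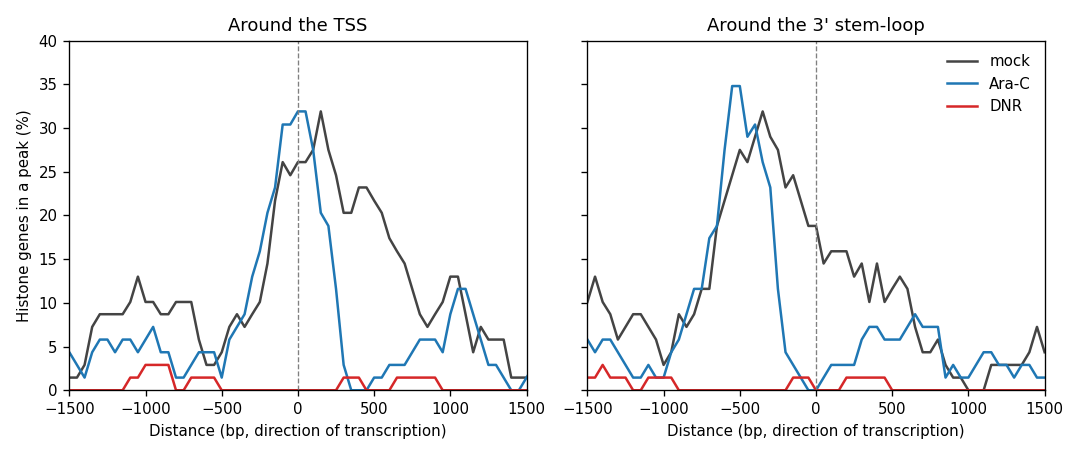
Share of the 69 histone genes with each position in a SUMO-2/3 peak (y axis, percent), around the TSS (left) and the 3′ stem-loop (right), in bp along the direction of transcription (x axis), for the mock, Ara-C and DNR lists. In the left panel Ara-C is highest at the TSS (31.9%), and in the right panel it is at 0% over the stem-loop, where mock is at 18.8%; DNR reaches 2.90% at most.

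A wide peak is more likely to cover any given base, so the widths of the mock peaks that held a stem-loop are a description only. The 12 such peaks had a median width of 600 bp (150 to 950), and the other 43 had a median of 200 bp (150 to 550). Of the 12, 7 overlapped an Ara-C peak and 0 a DNR peak. The 7 (at H2AC20 and H2AC21, H4C2, H1-2, H4C3, H1-4, H4C8 and H3C10) were therefore called under Ara-C too, with an Ara-C peak that left the stem-loop uncovered. How much a lower peak height would narrow a called peak was not tested, since the lists give no height.

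Of 41 histone genes with a mock peak near the TSS, 36 had an Ara-C peak there and 4 a DNR peak. Put the other way, of these 41 genes with a mock peak in the TSS window, 5 (12.2%) had no Ara-C peak in it, against 40.3% of all coding genes with a mock peak. Without a DNR peak were 37 (90.2%), against 88.7% of all coding genes, so that the absence of DNR peaks at the TSS was near the background. In the gene window, 4 of 42 (9.52%) had no Ara-C peak, against 15.0%, and 37 of 42 (88.1%) had no DNR peak, against 44.7%. The last background includes long genes with peaks anywhere in the body.

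Positions were compared next. Of the 55 mock peaks, 25 overlapped an Ara-C peak (45.5%, 33.0 to 58.5) and 2 a DNR peak (3.64%, 1.00 to 12.3). Among 4351 mock peaks in the TSS windows of other coding genes the shares were 38.1% and 4.34%. The windows differ here, since the 55 peaks came from the histone gene windows, and the histone TSS windows held 49. Of the 23 histone mock peaks of at least 300 bp, 15 overlapped an Ara-C peak (65.2%) and 0 a DNR peak, against 71.1% and 10.2% of such peaks at other genes. For the 0 of 23 under DNR the upper Wilson bound was 14.3%, and for the 15 of 23 under Ara-C the interval was 44.9 to 81.2%, so that the shares at other genes lay inside both intervals.

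Merging the 3 lists gave 79 distinct regions in the histone windows. Of these, mock alone held 28, Ara-C alone 19 and DNR alone 5, while 25 were common to mock and Ara-C and 2 to the 3 lists. Both shared regions lay outside the histone transcripts, and the bases common to the 3 lists are given on the plus strand.
Near H2BC4 and H2AC6, chr6:26123401-26123450: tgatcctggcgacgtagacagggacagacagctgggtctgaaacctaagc
Upstream of H4C8, chr6:26286601-26286800: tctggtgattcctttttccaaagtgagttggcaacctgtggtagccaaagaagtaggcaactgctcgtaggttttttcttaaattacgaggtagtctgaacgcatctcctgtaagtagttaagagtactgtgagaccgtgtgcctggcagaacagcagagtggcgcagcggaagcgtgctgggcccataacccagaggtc
The site near H2BC4 and H2AC6 was 200 bp in mock, 250 bp under Ara-C and 300 bp under DNR, the widest DNR peak at any histone gene. The site upstream of H4C8 was 250 bp in mock and 200 bp in each drug list, and its DNR and Ara-C peaks had the same ends. In RefSeq's gene table the nearest gene on that side of H4C8, apart from a long non-coding RNA, is the transfer RNA gene TRX-CAT1-2. That table is on another build, GRCh38.p14, so whether the shared region overlaps this gene was not tested. Neither sequence held any of the 3 motifs. The CTCF core consensus and the consensus of the transfer RNA B box, an internal promoter element of such genes, were each found in 0 of the 55 mock, 47 Ara-C and 7 DNR peaks, which says only that these letters were not met and not that a peak lies outside a transfer RNA gene.

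The remaining DNR peaks lay away from any mock peak. At H4C5 the DNR peak of 200 bp lay from -737 to -538 bp of the TSS, whereas the mock peak of 250 bp and the Ara-C peak of 200 bp lay over the TSS. At H3C8 the DNR peak was 150 bp, from 291 to 440 bp, and H3C8 had no peak in the other lists. H2BC4 and H2AC25, whose annotated records extend far past the histone transcript, each had a DNR peak in that extension, as did H4C8 at 2312 bp past its TSS.

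The genes with an Ara-C peak alone also had narrow ones. Those at H2AC7, H2BC7, H2BC26, H2AC19 and H4C11 were 200 to 250 bp wide. H2AC7 and H2BC7 shared the same peak, over the TSS of H2AC7. The mock-only peaks at H1-3, H2BC13, H2AC13 and H2AC15 were 150 or 200 bp.

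The factors that act on histone genes were read from a list of 21 genes. A mock peak lay in the TSS window of 10 of them (HINFP, CPSF2, YY1, CRAMP1, COIL, ZNF473, E2F1, SLBP, CASP8AP2 and ERI1), an Ara-C peak in that of 13 and a DNR peak in that of 0, and 8 of the 10 had both a mock and an Ara-C peak. All coding genes had 21.8%, 26.4% and 6.46%, and 0 of 21 under DNR is near that last share. The widest was at ZNF473, which encodes the U7 snRNP-associated zinc-finger protein, with 350 bp in mock and 400 bp under Ara-C. SLBP, the stem-loop binding protein, had a 150 bp mock peak and E2F1, a transcription factor of S phase entry, a 250 bp mock peak, and neither had an Ara-C peak there. CASP8AP2, a histone locus body protein, had 150 bp in mock and 300 bp under Ara-C. NPAT had no peak in its TSS window in any list.

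Among 12 replication-independent histone genes, whose products are used throughout the cell cycle, 4 had a mock peak in the TSS window and 4 an Ara-C peak, which for so few genes is near the 21.8% and 26.4% of all coding genes. In mock these were H3-3A, H1-10, H2AZ1 and H2AZ2, with peaks of 150 to 250 bp. H3-3A, H2AZ1 and H2AZ2 also had an Ara-C peak, as did H3-3B, which had none in mock. A width of 300 bp was reached by 21 of 49 mock peaks in the TSS windows of the replication-dependent genes. It was not reached by a mock or Ara-C peak in the TSS window of any of these 12 genes. Those of them with a peak there held only 1 or 2 in a list. Over all coding genes, 23.0% of mock and 21.5% of Ara-C peaks in TSS windows reached this width. For so few peaks, its absence is near those shares.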

How the data were processed

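SUMO-2/3 ChIP-seq was made from HL-60 cells in 3 conditions, with 3 inputs that were not analysed here. The deposited files hold peak positions, with no score or height. The authors aligned single-end reads to hg19 (CASAVA 1.8.2, per the submitters' processing notes), and with Pasha kept uniquely placed reads, extended them to 210 bp (mock, Ara-C) or 220 bp (DNR), counted them in bins of 50 bp, scaled them and subtracted input. Peaks were runs above a fixed value of 32 with gaps up to 100 bp, so a change in depth or scaling moves the number called.

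Genes came from GENCODE 44 on GRCh37. Of the 69 genes, 64 were found by present symbol, 2 by older symbol (H4C2, H2AC18) and 3 (H2BC7, H2BC8, H4C6) by an exact single match of the RefSeq promoter. Gene windows were 3.36 to 40.6 kb (median 3.50 kb), and 17 passed 5 kb because annotated records extend past the histone transcript. An overlap of 1 bp counted. Distances are from the canonical TSS. Stem-loops were searched up to 150 bp past the coding end with the general consensus of histone stem-loops. Counts were the same as those of bedtools 2.31.1 in all 6207 counts compared, and the steps were tested on simulated data. With 1 library a condition, no test between conditions was made. Intervals (95%; Wilson for shares, exact Poisson for counts) cover counting error only.

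The genes, lists and comparisons were chosen with earlier results of these data known. Genes named had a peak in at least 2 lists or a peak of at least 300 bp, at most 25 by summed peak bases, with the members of small groups, the widest peaks, and pathway genes with a peak. 1 result on the replication-independent genes is not reported here. Of promoters with several RefSeq starts, the one listed first was used. Alternatives covered peak width, window, transcript, overlap, gene list and single-copy sequence. Python 3.11.15, pandas 2.3.3, scipy 1.17.1 and pysam 0.24.0 were used.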

Additional observations from a re-analysis of the deposited data

How the results depend on the processing

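The results were recomputed under 12 alternatives, those on stem-loops and on single-copy or sequence-placed genes having been chosen after seeing the data. Of 76 values, 44 stayed within the margin set for them and 32 moved, and in each of these the cause was the construction of the alternative (fewer peaks, other windows, a wider or stricter margin) or was not tested.

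For mock, Ara-C and DNR in this order, peaks of at least 300 bp alone left 26, 21 and 2 histone genes (23, 13 and 1 distinct peaks, or 6.68, 3.77 and 0.290 per 100 kb), and 9, 11 and 1 comparison genes. At 200 bp, DNR had 4 genes and 4 peaks, and mock 18 comparison genes. TSS windows gave 32.2 and 27.0 peaks per 100 kb in mock and Ara-C, against 16.0 and 13.6 in gene windows, 4 DNR peaks, and 12, 11 and 1 comparison genes. Canonical transcripts gave 30.2 and 23.8 peaks per 100 kb in mock and Ara-C, and 4 DNR peaks. Stem-loops within 100 bp of a peak numbered 20, 3 and 1 in mock, Ara-C and DNR, and within 200 bp 23, 5 and 2. Mock peaks found again under Ara-C were 25.5% when 50% of the peak had to be covered and 70.9% within 500 bp. In each of these settings that gave all 3 lists, DNR stayed below mock and Ara-C.

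No paired analysis was possible because only 1 library stood for a condition, which also left no replicate to omit. The unknown depth limits what a missing DNR peak shows.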
